A study of Mus musculus with 10 samples.

Results

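Endothelial identity genes of the mouse lung were followed in whole lung tissue after lipopolysaccharide (LPS), with and without the cytokine TSLP. The set holds 41 genes picked by name as general, capillary, venous and lymphatic endothelial genes. All 41 were found among the 54532 genes of the count table, all 41 passed the filter on low counts, and they were tested together with the other genes of the 17139 that passed it. The tissue was whole lung of wild-type (WT) mice, as total RNA. There were 4 libraries labelled LPS+TSLP, 3 labelled LPS and 3 labelled Vehicle. LPS, from the outer membrane of Gram-negative bacteria, is sensed by TLR4, and TSLP (thymic stromal lymphopoietin) is a cytokine made mainly by epithelial cells. The labels used here give no dose, route, time, age or strain, and no order in which the agents were given. They do not say whether libraries came from separate animals, so p-values measure the spread between these samples, which may be technical.

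The endothelium lines every blood and lymph vessel, and in the lung most of it forms the capillaries that wrap the alveoli. Its cells are held together by VE-cadherin junctions, and their identity is set by transcription factors of the ETS, SoxF and KLF families. Receptors for BMP9, BMP10, adrenomedullin, apelin, sphingosine-1-phosphate and endothelin keep vessels quiet and sealed. LPS acts on endothelial cells directly and through inflammatory cytokines, which open junctions and turn on leukocyte adhesion molecules.

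By name, 5 of 8 defining endothelial markers are themselves members (Pecam1, Cdh5, Cldn5, Egfl7, Erg). No member had fewer than 19 counts in any library. Neither fact tests from which cells of the lung the reads came. Levels in CPM (read counts scaled to library size, with TMM factors) per kilobase of exon ranked Ace first in Vehicle lungs, at 426 ± 19.2 (SD, n = 3). Ace codes for the angiotensin-converting enzyme, which the lung capillary bed carries in large amounts. Cldn5 at 399 ± 22.1, Plvap at 379 ± 145 and Cdh5 at 318 ± 54.5 CPM per kilobase came next in Vehicle lungs, and the spread of Plvap took in both of its neighbours in that order. Lowest was Prox1, the transcription factor that specifies lymphatic endothelium, at 0.303 ± 0.0535 CPM per kilobase, below Tal1 at 6.12 ± 0.754.

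Library totals were 16175172 to 18374461 counts, and the members together took 0.993% to 1.69% of them. Mitochondrial genes took 1.11% to 1.27% of the counts in Vehicle libraries and 1.2% to 2.58% in LPS libraries. In LPS+TSLP replicates 1, 2, 3 and 4 they took 13.1%, 6.5%, 5.35% and 2%, and the part of this difference in the comparisons was not tested. LPS+TSLP replicate 1 also had the lowest member share. Its alveolar type 1 markers summed to 1400 CPM, against 4120 to 5660 CPM in the other LPS+TSLP libraries. Its alveolar type 2 markers summed to 3940 CPM, against 15300 to 23300 CPM there. Ciliated cell markers went the other way, at 865 CPM against 211 to 261 CPM. The part of these differences in the comparisons was not tested. LPS replicate 1 had 206 CPM of Xist and 0 CPM of Ddx3y, whereas the other 9 had at most 0.452 CPM of Xist. Ddx3y stood at 59.7 to 94.8 CPM in the LPS+TSLP libraries, at 70.1 and 89.6 CPM in the remaining LPS libraries, and at 6.03 to 11.4 CPM in Vehicle libraries. Sex is not given in the labels used here. Counts are given with and without LPS replicate 1 and LPS+TSLP replicate 1 below. Leaving these out does not remove the Ddx3y difference between Vehicle and the remaining libraries, whose part in the comparisons was not tested. In bulk tissue, fewer endothelial cells and less RNA per endothelial cell cannot be told apart.

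Members went in both directions after LPS. In LPS against Vehicle 7 of the 41 fell (Aplnr, Sox7, Flt4, Mmrn2, Sox18, Cdh5, Acvrl1), 3 rose (Calcrl, Bmpr2, Nostrin) and 31 were not called. The threshold for a call was an adjusted p (Benjamini-Hochberg) of 0.05 in edgeR's quasi-likelihood test over all 17139 genes, which called 10.7% of them lower and 14.2% higher. Either way, 24.9% of all genes were called, and the counts by role below stand beside these shares. At an unadjusted p under 0.05 there were 17 members, beside 39.6% of all genes. The median log2 fold change was −0.10 over the members and 0.01 over all tested genes, with values between −3.05 and 1.94. The LPS and Vehicle libraries did not overlap for 10 members that were lower and 8 that were higher in LPS, beside 25.1% and 24.7% of all tested genes, 49.8% together. The 16 uncalled members for which no log2 fold change is given below lay between −0.44 and 0.40 on the log2 scale. Leaving out LPS replicate 1 and LPS+TSLP replicate 1 together gave 3 lower and 5 higher members, 6 of the 10 calls among them. Sox7, Sox18, Mmrn2 and Acvrl1 then lost their calls, with adjusted p of 0.0635, 0.0516, 0.0835 and 0.0561, and Klf4 and Lyve1 were gained. Without Vehicle replicate 1, and likewise without Vehicle replicate 2, 1 lower (Aplnr) and 1 higher member (Bmpr2) were called. Without LPS replicate 1 the calls were 2 lower and 3 higher, and without LPS replicate 2 they were 4 lower and 2 higher. Without Vehicle replicate 3 or LPS+TSLP replicate 1 there were 5 higher calls, and without LPS+TSLP replicate 3 there were 4 lower.

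**Figure D1:**
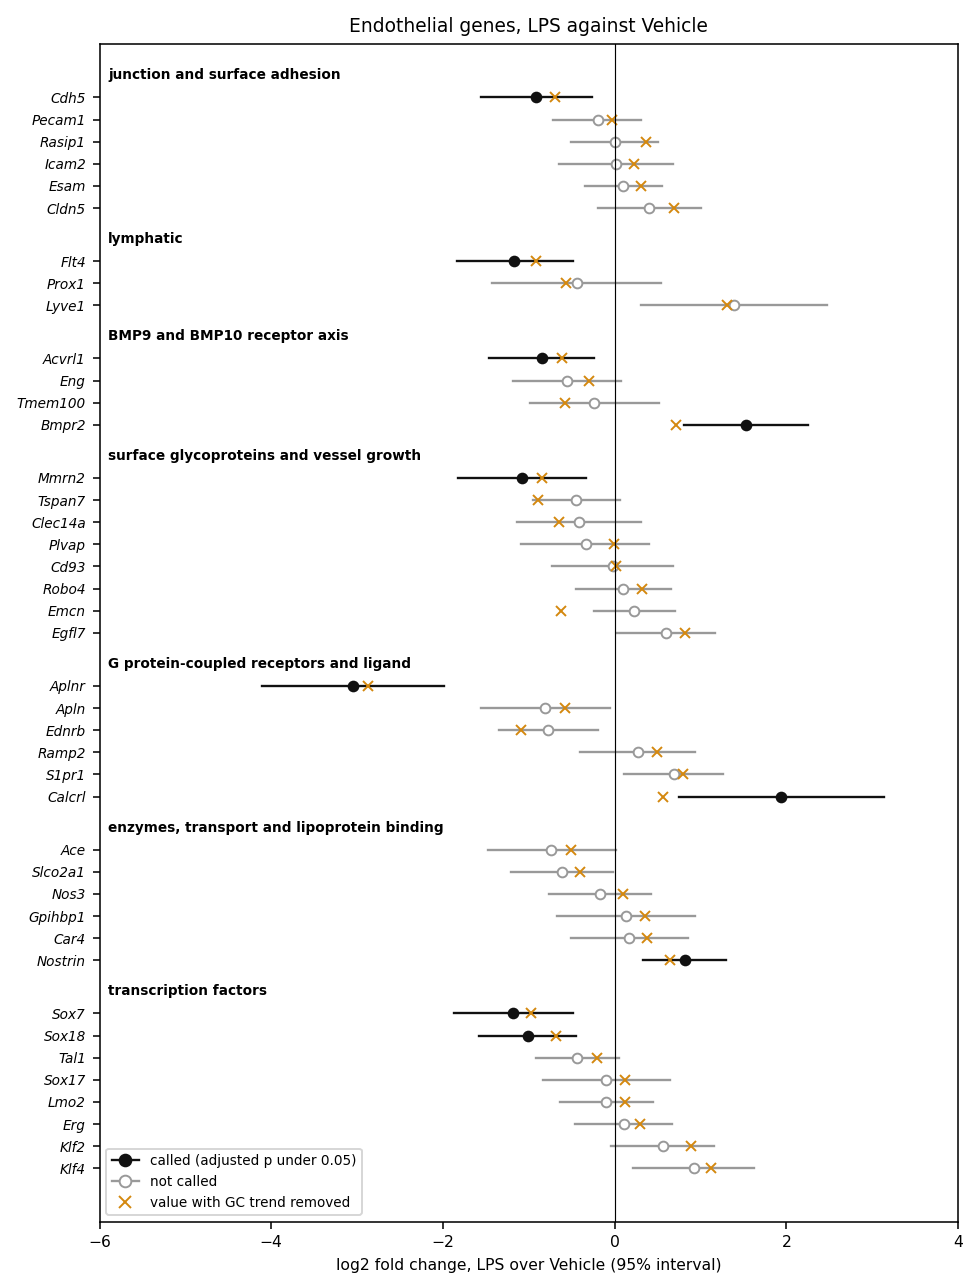
Log2 fold change of the 41 genes, LPS over Vehicle, with 95% intervals, grouped by role. Filled points are the 10 called genes, open points the 31 that were not, and crosses the value with the GC trend removed: Calcrl is at 1.94 as counted and at 0.56 without the trend, and Aplnr stays lowest at −2.87.

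Changes after LPS went with base composition across the whole table, and this touches every call below. The 1075 tested genes with under 40% GC in their exons had a median log2 fold change of 1.37 in LPS against Vehicle, against −0.25 for the 3679 genes with at least 55%. The 3 members that rose had 37.8% (Calcrl), 41.0% (Bmpr2) and 44.7% GC (Nostrin), and the 7 that fell had 50.7% to 60.9%. With each library's GC trend removed, 5 members were lower and 5 higher. Of the 10 calls, Aplnr (−2.87), Sox7 (−0.98) and Nostrin (0.64) kept theirs. Gained calls were Ednrb at −1.09, Tspan7 at −0.89 and Emcn at −0.63 on the lower side, and Klf4 at 1.12, Klf2 at 0.89, Egfl7 at 0.82 and S1pr1 at 0.80 on the higher side. Emcn changed direction, since its log2 fold change as counted was 0.23. Whether the trend is technical or part of the LPS response was not tested.

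**Figure D2:**
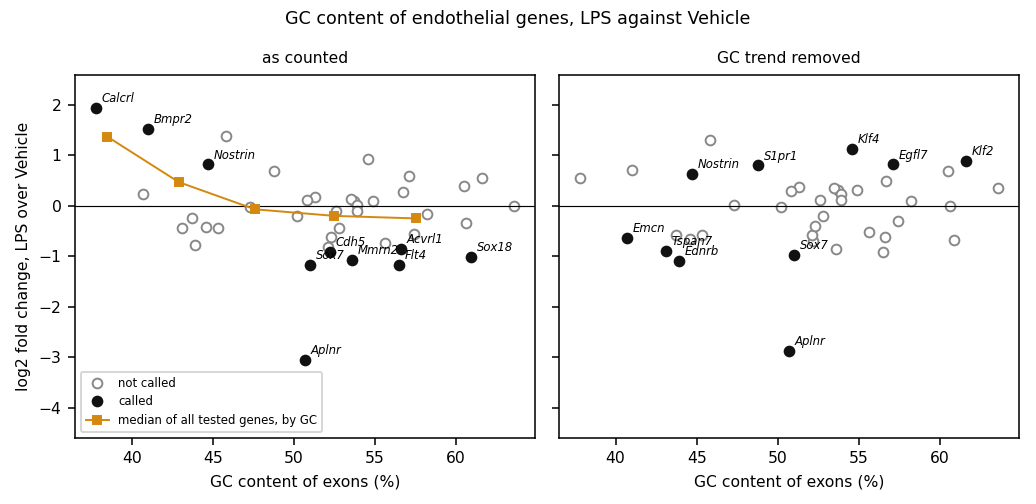
GC content of each member's exons against its log2 fold change in LPS against Vehicle, as counted (left, with the median of all tested genes in 5 GC classes as squares) and with the GC trend removed (right). Filled points are called members, and on the left the risen genes sit at 37.8% to 44.7% GC. On the right the 5 lower calls sit at 40.7% to 51.0% GC and the 5 higher calls at 44.7% to 61.6%.

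Among the G protein-coupled receptors and their ligand, 1 of 6 members fell and 1 rose after LPS. Aplnr, the receptor of the peptide apelin, fell further than any other member. The gene lies on chromosome 2 (85136225 to 85139923, plus strand, GRCm38). It had 4.69, 18.0 and 6.11 CPM in LPS libraries, against 112, 83.6 and 43.8 CPM in Vehicle libraries. Every LPS library was below every Vehicle library, and the log2 fold change was −3.05 ± 0.48 (SE), or 8.29-fold lower, with an adjusted p of 0.00316. The call held with any 1 library left out, at −3.88 to −2.72, with −3.88 found without LPS replicate 2. Apln, which codes for apelin, was not called, at 32.8, 37.2 and 43.8 CPM in LPS libraries and 76.0, 81.2 and 41.9 CPM in Vehicle libraries (log2 fold change −0.81, adjusted p = 0.107). The groups overlapped, because Vehicle replicate 3 lay inside the LPS range.

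Calcrl moved the other way. It codes for the receptor that binds adrenomedullin when paired with RAMP2, a signal that tightens the endothelial barrier, and lies on chromosome 2 (84330626 to 84425411, minus strand). Calcrl had 917, 854 and 1160 CPM in LPS libraries, against 204, 180 and 380 CPM in Vehicle libraries. The groups did not overlap, and Calcrl rose 3.84-fold (log2 fold change 1.94 ± 0.54, adjusted p = 0.0253). With the GC trend removed the value was 0.56 (adjusted p = 0.346). Calcrl was also not called without Vehicle replicate 1, Vehicle replicate 2, LPS replicate 1 or LPS replicate 3, with adjusted p of 0.0917, 0.0913, 0.052 and 0.05, nor with no filter on low counts. Its partner Ramp2 averaged 416 ± 127 CPM in LPS libraries and 345 ± 28.2 CPM in Vehicle libraries (SD, n = 3 each) and was not called. Ramp2 shares 33.4% of its exon bases with Vps25, so its counts are less certain.

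S1pr1 and Ednrb stood just outside the threshold in opposite directions. S1pr1, the endothelial receptor for sphingosine-1-phosphate, had 496, 523 and 637 CPM in LPS libraries, against 283, 316 and 431 CPM in Vehicle libraries. Every LPS library was higher, with a log2 fold change of 0.69 and an adjusted p of 0.0758. Ednrb, an endothelin receptor found on aerocytes of the capillary bed, had 40.2, 66.6 and 40.2 CPM in LPS libraries, against 88.1, 92.1 and 71.3 CPM in Vehicle libraries. Every LPS library was lower, with a log2 fold change of −0.78 and an adjusted p of 0.0518.

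In the BMP9 and BMP10 receptor complex the type I and type II receptors moved in opposite directions. Bmpr2 (chromosome 1, 59763400 to 59879014, plus strand) codes for the type II receptor, whose loss-of-function variants underlie heritable pulmonary arterial hypertension in humans. Bmpr2 had 590, 456 and 750 CPM in LPS libraries, against 218, 184 and 220 CPM in Vehicle libraries. Every LPS library was above every Vehicle library, and Bmpr2 rose 2.89-fold (log2 fold change 1.53 ± 0.33, adjusted p = 0.00916). The call held with any 1 library left out, at 1.37 to 1.69, but not with the GC trend removed (0.71, adjusted p = 0.0867).

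Acvrl1 (chromosome 15, 101128522 to 101145336, plus strand) codes for ALK1, the type I receptor of the complex. It had 462, 494 and 516 CPM in LPS libraries, against 1010, 1010 and 642 CPM in Vehicle libraries. Every LPS library was below every Vehicle library, and Acvrl1 fell 1.81-fold (log2 fold change −0.85 ± 0.28, adjusted p = 0.0445). Acvrl1 was not called without Vehicle replicate 1, Vehicle replicate 2, LPS replicate 1, LPS replicate 2, LPS replicate 3, LPS+TSLP replicate 2 or LPS+TSLP replicate 3, with adjusted p of 0.133, 0.13, 0.0975, 0.1, 0.0726, 0.0578 and 0.0615. It was also lost with the GC trend removed (−0.61, adjusted p = 0.127) and with no filter on low counts. The co-receptor Eng (log2 fold change −0.56, adjusted p = 0.172) and Tmem100, a gene switched on downstream of ALK1, were not called.

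Of the 8 transcription factors, Sox7 and Sox18 fell and none rose. Both belong, with Sox17, to the SoxF family, which acts in vessel specification. Sox7 (chromosome 14, 63943673 to 63950732, plus strand) had 48.0, 55.2 and 71.1 CPM in LPS libraries, against 150, 138 and 107 CPM in Vehicle libraries. No LPS library reached the Vehicle range, and Sox7 fell 2.27-fold (log2 fold change −1.18 ± 0.31, adjusted p = 0.0206). The call was lost without Vehicle replicate 1, Vehicle replicate 2, LPS replicate 1 or LPS replicate 2, with adjusted p of 0.069, 0.0567, 0.0665 and 0.0608.

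Sox18 (chromosome 2, 181669836 to 181671640, minus strand) varied little among LPS libraries. It had 92.1, 98.4 and 97.6 CPM in LPS libraries, against 197, 226 and 158 CPM in Vehicle libraries. The groups did not overlap, and Sox18 fell 2.02-fold (log2 fold change −1.01 ± 0.26, adjusted p = 0.0176). The call was lost without Vehicle replicate 1, Vehicle replicate 2 or LPS replicate 1, with adjusted p of 0.0602, 0.0733 and 0.059, and with the GC trend removed (−0.68, adjusted p = 0.0687). Sox17, by contrast, had 68.4, 92.9 and 82.1 CPM in LPS libraries and 87.1, 69.7 and 103 CPM in Vehicle libraries. These ranges overlapped and Sox17 was not called (log2 fold change −0.10 ± 0.34, 95% interval −0.83 to 0.64). An antisense gene, Gm37587, covers 16.8% of its exon bases, and the strand setting of the counting is not given in the sources used here.

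Klf4 and Klf2, the factors that laminar shear stress turns on in endothelium, were higher in every LPS library without being called. Klf4 had 217, 318 and 237 CPM in LPS libraries, against 127, 107 and 175 CPM in Vehicle libraries (log2 fold change 0.92, adjusted p = 0.0566). Klf2 had 544, 491 and 386 CPM in LPS libraries, against 360, 306 and 300 CPM in Vehicle libraries (log2 fold change 0.56, adjusted p = 0.152). Neither is specific to endothelium, as macrophages and lymphocytes express both. The ETS factor Erg and the partners Tal1 and Lmo2 were not called.

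Of the 6 junction and adhesion genes, Cdh5 fell and none rose. Cdh5 (chromosome 8, 104101625 to 104144511, plus strand) codes for VE-cadherin, the adhesive core of endothelial adherens junctions. It had 474, 818 and 831 CPM in LPS libraries, against 1440, 1490 and 1070 CPM in Vehicle libraries. No LPS library reached the Vehicle range, and Cdh5 fell 1.89-fold (log2 fold change −0.92 ± 0.30, adjusted p = 0.0428). The call was lost without Vehicle replicate 1, Vehicle replicate 2, LPS replicate 1, LPS replicate 2, LPS+TSLP replicate 2 or LPS+TSLP replicate 3, with adjusted p of 0.113, 0.116, 0.109, 0.0662, 0.058 and 0.0617. It was also lost with the GC trend removed (−0.70, adjusted p = 0.106). Pecam1, the adhesion molecule most used to mark endothelium, averaged 861 ± 100 CPM in LPS libraries and 990 ± 73.7 CPM in Vehicle libraries (SD, n = 3 each) and was not called (log2 fold change −0.20, 95% interval −0.72 to 0.31). Cldn5 of tight junctions, Esam, Icam2 and the small GTPase regulator Rasip1, which shares 42.9% of its exon bases with other genes, were not called either.

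The surface glycoprotein and vessel growth genes had 1 called member of 8. Mmrn2 (chromosome 14, 34375465 to 34404287, plus strand) codes for multimerin 2, a matrix protein that binds the lectins CD93 and CLEC14A on endothelial cells. Mmrn2 had 27.6, 41.3 and 63.0 CPM in LPS libraries, against 122, 86.6 and 71.4 CPM in Vehicle libraries. The groups did not overlap, and Mmrn2 fell 2.12-fold (log2 fold change −1.08 ± 0.34, adjusted p = 0.0381). The call was lost without Vehicle replicate 1, Vehicle replicate 2, LPS replicate 1, LPS replicate 2 or LPS+TSLP replicate 3, with adjusted p of 0.132, 0.0698, 0.105, 0.0984 and 0.0528, and with the GC trend removed (−0.85, adjusted p = 0.0904). Its binding partners Cd93 and Clec14a were not called.

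Egfl7, a secreted factor whose gene carries a microRNA in an intron, had 519, 486 and 303 CPM in LPS libraries, against 289, 290 and 287 CPM in Vehicle libraries. Every LPS library was higher, but Egfl7 was not called (log2 fold change 0.60, adjusted p = 0.112), and 11.2% of its exon bases lie in other genes. Emcn, Robo4, Plvap and Tspan7 (log2 fold change −0.45) were not called as counted.

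Among the enzymes and transporters, Nostrin rose and none of the 6 fell. Nostrin (chromosome 2, 69135800 to 69189330, plus strand) codes for a protein that carries endothelial nitric oxide synthase away from the plasma membrane. It had 62.7, 78.3 and 68.0 CPM in LPS libraries, against 32.7, 36.1 and 49.6 CPM in Vehicle libraries. All LPS libraries were above the Vehicle range, and Nostrin rose 1.76-fold (log2 fold change 0.82 ± 0.22, adjusted p = 0.0218). Nostrin was not called without Vehicle replicate 1, Vehicle replicate 2 or LPS replicate 2, with adjusted p of 0.0843, 0.0803 and 0.0691, nor with the trend with exon length removed (0.58). With the GC trend removed it was (0.64, adjusted p = 0.0404). Nos3, the nitric oxide synthase itself, was not called, and 32.3% of its exon bases lie in other genes.

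Ace averaged 1350 ± 159 CPM in LPS libraries and 2250 ± 102 CPM in Vehicle libraries (SD, n = 3 each). All LPS libraries were lower, yet its log2 fold change of −0.74 was not called (adjusted p = 0.131). Slco2a1, the prostaglandin transporter, was likewise lower in every LPS library without being called (log2 fold change −0.62, adjusted p = 0.116). Car4 and Gpihbp1, genes of capillary endothelium, were not called.

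The 3 lymphatic members differed from each other. Flt4 (chromosome 11, 49609263 to 49652739, plus strand) codes for VEGFR3, the VEGF-C receptor of lymphatic endothelium, which lung blood capillaries also express. Flt4 had 25.7, 47.9 and 53.4 CPM in LPS libraries, against 104, 111 and 70.4 CPM in Vehicle libraries. No LPS library reached the Vehicle range, and Flt4 fell 2.25-fold (log2 fold change −1.17 ± 0.31, adjusted p = 0.0197). Flt4 was not called without Vehicle replicate 1 or Vehicle replicate 2, with adjusted p of 0.061 and 0.0621, and with the GC trend removed (−0.92, adjusted p = 0.054).

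Lyve1, a hyaluronan receptor of lymphatic endothelium and of some interstitial macrophages, had 274, 675 and 625 CPM in LPS libraries, against 161, 199 and 239 CPM in Vehicle libraries. LPS replicate 1 was nearest to Vehicle, and the log2 fold change of 1.39 was not called (adjusted p = 0.0582). Without LPS replicate 1 it was 1.70 (adjusted p = 0.0433), and without both LPS replicate 1 and LPS+TSLP replicate 1 it was 1.72 (adjusted p = 0.00257). The 8 interstitial macrophage markers, which include Lyve1, summed to 844 to 1170 CPM in LPS libraries, against 470 to 771 CPM in Vehicle libraries. The CPM of Lyve1 itself are a large part of these sums, which therefore cannot alone show whether the other markers changed. One by one, 1 of the 8 was called higher and 1 lower, beside 14.2% and 10.7% of all tested genes. A log2 fold change below 0 was found for 3 of the 8. The part of interstitial macrophages in the Lyve1 level was not tested. Prox1 had 1.16, 2.71 and 1.72 CPM in LPS libraries, against 2.86, 2.03 and 2.73 CPM in Vehicle libraries. The groups overlapped, and the log2 fold change was −0.44 (95% interval −1.43 to 0.54).

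**Figure D3:**
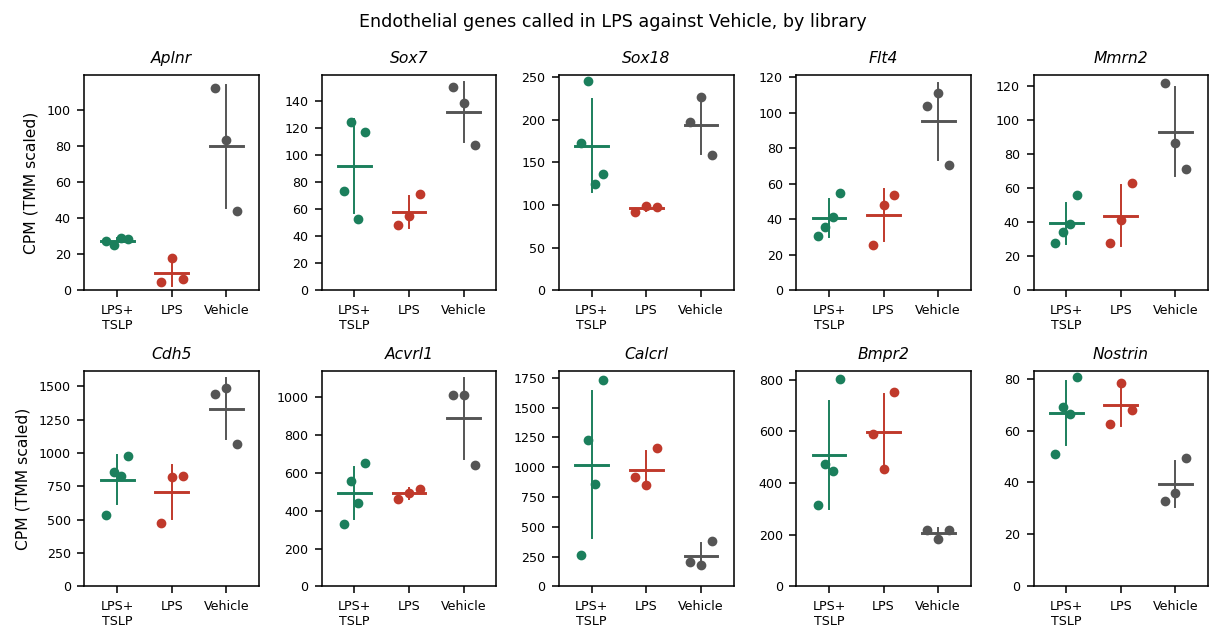
TMM-scaled CPM of the 10 genes called in LPS against Vehicle, 1 point per library, with group mean (bar) and SD (line), on linear axes from 0. For Flt4 and Mmrn2 all 4 LPS+TSLP libraries are below the lowest Vehicle library, for Nostrin LPS+TSLP replicate 1 (51.0 CPM) lies just above the highest Vehicle library (49.6 CPM), and for Aplnr the LPS+TSLP libraries lie between the LPS and Vehicle libraries.

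Promoter sequence is shown for the 3 members that rose and for Flt4, the fallen member with an entry in the promoter table, to set the genes that moved in opposite directions side by side. Entries were found for 22 of the 41 members. Each line gives the 250 bases before the RefSeq transcription start (GRCm38.p6), 5′ to 3′ in the direction of the gene, with capitals for matches to 4 short cores on either strand. The core of ETS factors such as ERG was searched as AGGAAG. That of SOX factors was searched as ACAATG. For KLF factors the letters were CACACCC. For GATA factors they were AGATAA. Windows are chr2:84425267-84425516 (minus) for Calcrl, chr1:59764029-59764278 (plus) for Bmpr2, chr2:69135550-69135799 (plus) for Nostrin and chr11:49609429-49609678 (plus) for Flt4.
Calcrl: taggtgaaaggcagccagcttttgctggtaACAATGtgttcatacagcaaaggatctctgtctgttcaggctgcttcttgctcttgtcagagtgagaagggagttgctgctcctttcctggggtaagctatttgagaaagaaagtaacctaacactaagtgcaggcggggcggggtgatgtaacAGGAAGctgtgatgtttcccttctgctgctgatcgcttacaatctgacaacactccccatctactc
Bmpr2: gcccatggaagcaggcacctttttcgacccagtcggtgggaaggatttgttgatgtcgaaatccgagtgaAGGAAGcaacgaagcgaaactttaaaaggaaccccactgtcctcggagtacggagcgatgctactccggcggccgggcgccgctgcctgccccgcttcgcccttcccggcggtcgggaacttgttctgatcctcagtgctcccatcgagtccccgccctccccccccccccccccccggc
Nostrin: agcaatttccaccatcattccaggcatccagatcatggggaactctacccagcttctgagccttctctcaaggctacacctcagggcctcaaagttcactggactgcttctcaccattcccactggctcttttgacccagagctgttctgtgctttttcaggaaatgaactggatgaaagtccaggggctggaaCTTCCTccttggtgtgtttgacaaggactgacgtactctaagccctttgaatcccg
Flt4: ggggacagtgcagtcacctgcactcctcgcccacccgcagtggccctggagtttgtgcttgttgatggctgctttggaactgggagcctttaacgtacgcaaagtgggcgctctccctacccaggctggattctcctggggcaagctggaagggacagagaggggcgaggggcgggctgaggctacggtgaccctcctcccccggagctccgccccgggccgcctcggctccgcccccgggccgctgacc

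An ETS core stood in all 3 risen members, starting 66 bases before the start in Calcrl, 180 before it in Bmpr2 and 56 before it, on the opposite strand, in Nostrin. Calcrl also held a SOX core 220 bases before its start, and Flt4 held none of the 4 cores. These windows had 48.4% (Calcrl), 64.0% (Bmpr2), 50.4% (Nostrin) and 68.4% GC (Flt4), so the Bmpr2 window did not share the low GC of its exons as a whole. By the gene positions given above, the Bmpr2 and Flt4 windows lie inside the genes and the Calcrl window lies partly inside. The ETS core occurred in 12 of the 22 member genes with an entry (54.5%) and in 32.3% of all 27025 genes with an entry. Shares for the SOX, KLF and GATA cores were 9.1% each among member genes, beside 12.2%, 7.9% and 11.4% of all genes. A match is a description of letters and shows no binding, and its relation to the changes was not tested.

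Other endothelial genes were counted in LPS against Vehicle, in lists that share no gene with the members. These lists were chosen with earlier results of these data known, so they are not an independent check. Their counts stand beside the 10.7% lower and 14.2% higher of all tested genes. Of 10 arterial genes 8 fell and none rose, with a median log2 fold change of −1.25. Dll4, a Notch ligand of arterial and tip cells, averaged 56.1 ± 12.2 CPM in LPS libraries and 137 ± 52.2 CPM in Vehicle libraries (log2 fold change −1.28, adjusted p = 0.011). The ephrin Efnb2 (−1.27) and the connexins Gja5 (−1.27) and Gja4 (−1.26) also fell. Without Vehicle replicate 1 Efnb2, Gja5 and Gja4 had adjusted p of 0.0506, 0.0572 and 0.0796, and Gja4 had 0.0588 without Vehicle replicate 2, 0.0583 without LPS replicate 2 and 0.0548 with the GC trend removed. The arterial count was 1 without Vehicle replicate 1, 3 without Vehicle replicate 2, 4 without LPS replicate 2, 5 without LPS replicate 1 or LPS replicate 3, and 4 with the GC trend removed.

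Of 32 other pan-endothelial genes 8 fell and 3 rose, with a median of −0.49, beside 10.7% lower and 14.2% higher of all tested genes. The VEGF receptor Kdr averaged 220 ± 76.4 CPM in LPS libraries and 589 ± 194 CPM in Vehicle libraries (log2 fold change −1.42, adjusted p = 0.0124). The adaptor She fell (−1.50), while Procr, the endothelial protein C receptor (1.77), and Cav2 of caveolae (2.0, or 0.55 with the GC trend removed) rose. Without Vehicle replicate 1 Procr and Cav2 had adjusted p of 0.0578 and 0.0633, and Cav2 had 0.0587 without Vehicle replicate 2. The counts were 2 lower and 0 higher without Vehicle replicate 1, 2 lower and 1 higher without Vehicle replicate 2, 4 lower and 2 higher without LPS replicate 1, 12 lower and 4 higher without LPS+TSLP replicate 1, and 8 lower and 1 higher with the GC trend removed.

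Genes of other vessel subtypes were counted the same way, with no test between the lists, beside 10.7% lower and 14.2% higher of all tested genes. The median log2 fold change was 0.15 for the venous, −0.03 for the capillary and −0.75 for the lymphatic list. Of 8 venous genes 2 fell, namely Vwf, which codes for von Willebrand factor (−1.78), and Ephb4, the ephrin-B2 receptor (−1.04), and Slc6a2 (−1.57) and Ackr1 (1.16) were not called. Without Vehicle replicate 1, Vehicle replicate 2, LPS replicate 1 or LPS replicate 2 the venous count was 0 lower, with the GC trend removed it was 1 (Vwf at −1.54 with adjusted p = 0.0521 and Ephb4 at −0.77 with 0.0941 were not called), and it was 3 lower without LPS+TSLP replicate 1 or LPS+TSLP replicate 4. Of 9 tested capillary genes 1 rose, Kitl, the KIT ligand, at 211 ± 40.8 CPM in LPS libraries and 32.8 ± 8.0 CPM in Vehicle libraries (log2 fold change 2.68, adjusted p = 0.00196). Cd300lg (−1.25), Tbx2 (−0.68) and Chst1 (−0.51) were not called. The capillary list had 2 lower calls without Vehicle replicate 3, LPS replicate 2 or LPS+TSLP replicate 1, and 2 higher without Vehicle replicate 2, LPS+TSLP replicate 1 or LPS+TSLP replicate 4. Of 7 tested lymphatic genes outside the set 2 fell, Reln (−2.51, adjusted p = 0.00769) and the valve factor Foxc2 (−1.66, adjusted p = 0.0439), whereas Nrp2 (−0.75) and Pdpn (0.79) were not called. The lymphatic count was 1 lower without any single Vehicle library, LPS replicate 1, LPS replicate 2 or LPS+TSLP replicate 3, and 3 lower and 1 higher without LPS+TSLP replicate 1. Foxc2 was also not called without LPS replicate 3 (adjusted p = 0.0632), with the GC trend removed (−1.30) or with no filter on low counts (adjusted p = 0.0615).

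Partners of the members in signalling were read the same way. Of all tested genes 24.9% were called, 10.7% lower and 14.2% higher. Of 16 tested BMP pathway partners 3 fell and 1 rose: Smad9, a transducer of the receptors (−2.34, adjusted p = 0.00984), the type II receptor Acvr2b (−1.51) and the ligand Bmp6 (−1.26) fell, and Id1, a target of the pathway (0.80), rose. Without Vehicle replicate 1 this was 1 lower and 0 higher, with adjusted p of 0.0631 for Acvr2b, 0.0897 for Bmp6 and 0.0761 for Id1. Without Vehicle replicate 2 or LPS replicate 1 it was 2 lower and 0 higher, as Bmp6 and Id1 were not called, and Id1 was not called without Vehicle replicate 3 (0.0792) or LPS replicate 2 (0.081) or with the length trend removed (0.36), nor Bmp6 with the GC trend removed (−0.98). Of 13 tested adrenomedullin, apelin, sphingosine-1-phosphate and endothelin partners 3 fell and 1 rose. Spns2, the endothelial exporter of sphingosine-1-phosphate (−1.35, adjusted p = 0.00468), the receptor S1pr3 (−0.73) and Ednra (−0.92) fell, and the kinase Sphk1, which makes the lipid, rose (1.56, adjusted p = 0.0107). Without LPS replicate 1, LPS replicate 3 or Vehicle replicate 2 the count was 1 lower, Ednra and S1pr3 losing their calls, and without Vehicle replicate 1 it was 2 (Ednra at adjusted p = 0.0771). S1pr3 was at −0.52 (adjusted p = 0.07) with the GC trend removed, and there were 2 higher calls without Vehicle replicate 3 or LPS+TSLP replicate 1. Of 13 KLF pathway partners 4 rose and 1 fell, among them Klf6 (1.90), Krit1 (1.98) and Pdcd10 (1.37) on the higher side and Heg1 (−1.28) on the lower. Krit1, Pdcd10 and Heg1 belong to the complex that restrains Klf2 and Klf4 in endothelium. Pdcd10 was at −0.36 with the GC trend removed, which left 2 higher calls, and the KLF partner list had 3 lower calls without LPS replicate 3 and 2 without LPS+TSLP replicate 1.

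Marker lists of other cell types were summed in the same libraries, and their calls stand beside the 10.7% lower and 14.2% higher of all tested genes. The 10 fibroblast markers summed to 1670 to 3150 CPM in LPS libraries, against 5460 to 6980 CPM in Vehicle libraries, with 5 of 10 lower. The 10 smooth muscle and pericyte markers summed to 761 to 921 CPM in LPS libraries, against 1310 to 2070 CPM in Vehicle libraries, with 4 of 10 lower. The 10 neutrophil markers summed to 1550 to 2220 CPM in LPS libraries, against 458 to 1300 CPM in Vehicle libraries, with 1 of 10 called higher (Ly6g at 1.67) and 3 with a log2 fold change below 0 (Camp at −0.99, Ngp at −1.49 and Ltf at −0.90, none called). These 4 were named after their values were seen. The 8 defining endothelial markers summed to 3390 to 3610 CPM in LPS libraries, against 3940 to 5150 CPM in Vehicle libraries. Of these markers 4 were called lower and 3 had a log2 fold change above 0. Because 5 of the 8 are members, this sum is not a measure apart from the members. All 8 inflammatory genes used to check the LPS label rose. The part of cell composition in the members' changes was not tested.

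In LPS+TSLP against LPS, the comparison that asks what TSLP added, none of the 41 members was called. It shares the LPS libraries with LPS against Vehicle, so a gene low in them by chance would fall there and rise here. The quasi-likelihood test of edgeR called 0% of the 17139 genes in either direction, with 1388 (8.1%) at an unadjusted p under 0.05, and 5 members among them. Of the 41 members 14 had a log2 fold change below 0, beside 47.8% of all genes. The Wald test of DESeq2 called 34 genes and 0 members. The members' median log2 fold change was 0.10, beside 0.02 over all tested genes. Groups did not overlap for 1 lower and 2 higher members, beside 3.54% and 3.88% of all genes, 7.42% together. For 30 members the 95% interval lay within −1 to 1 on the log2 scale, and for 11 it reached past it, so changes of up to 2-fold were bounded for the first and not for the others.

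Aplnr had the largest positive difference of the 41, at 27.4, 25.1, 29.2 and 28.4 CPM in LPS+TSLP libraries, against 4.69, 18.0 and 6.11 CPM in LPS libraries. The LPS+TSLP libraries were all higher and close to each other, with a log2 fold change of 1.52 (95% interval 0.55 to 2.49, adjusted p = 0.589). Over the alternatives the adjusted p ran from 0.0949 to 0.903, and without LPS replicate 2 the value was 2.35.

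The SoxF factors were next. Sox17 had 81.3, 226, 125 and 203 CPM in LPS+TSLP libraries, against 68.4, 92.9 and 82.1 CPM in LPS libraries (log2 fold change 0.97, 95% interval 0.27 to 1.67, adjusted p = 0.589). The groups overlapped through LPS+TSLP replicate 1. Sox18 had 173, 245, 124 and 136 CPM in LPS+TSLP libraries, against 92.1, 98.4 and 97.6 CPM in LPS libraries (log2 fold change 0.82, 95% interval 0.28 to 1.36, adjusted p = 0.589). Every LPS+TSLP library was higher. Sox7 had 73.6, 124, 52.4 and 117 CPM in LPS+TSLP libraries, against 48.0, 55.2 and 71.1 CPM in LPS libraries (log2 fold change 0.66, 95% interval 0.02 to 1.31, adjusted p = 0.61). LPS+TSLP replicate 3 lay inside the LPS range.

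On the negative side stood Lyve1, S1pr1 and Pecam1. Lyve1 had 95.2, 323, 466 and 321 CPM in LPS+TSLP libraries, against 274, 675 and 625 CPM in LPS libraries (log2 fold change −0.80, 95% interval −1.78 to 0.18). The groups overlapped. S1pr1 had 298, 269, 440 and 443 CPM in LPS+TSLP libraries, against 496, 523 and 637 CPM in LPS libraries (log2 fold change −0.61, 95% interval −1.14 to −0.08, adjusted p = 0.595). Every LPS+TSLP library was lower, within the range of the Vehicle libraries or close to it. Pecam1 had 541, 522, 605 and 855 CPM in LPS+TSLP libraries, against 889, 750 and 944 CPM in LPS libraries (log2 fold change −0.45, adjusted p = 0.638). LPS+TSLP replicate 4 overlapped the LPS range. Klf2 was at 0.45 (95% interval −0.11 to 1.02, adjusted p = 0.693). The 33 members not named for this comparison lay between −0.27 and 0.49. Neutrophil markers summed to 557 to 1120 CPM in LPS+TSLP libraries, against 1550 to 2220 CPM in LPS libraries, and fibroblast markers to 2540 to 4610 CPM in LPS+TSLP libraries, against 1670 to 3150 CPM in LPS libraries. No marker of either list was called, and their part in these differences was not tested.

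**Figure D4:**
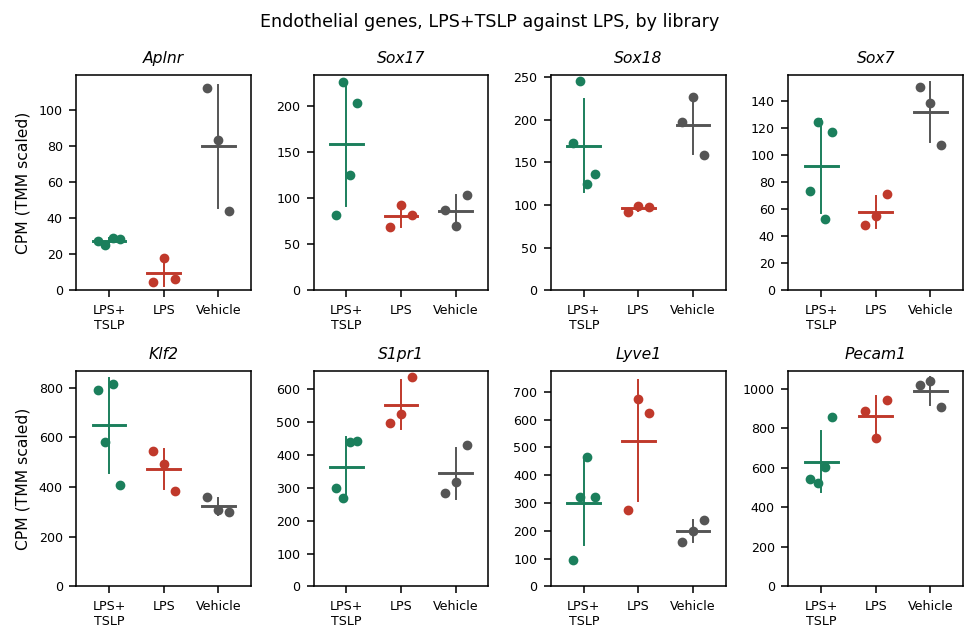
TMM-scaled CPM of 8 endothelial genes by library, with group mean (bar) and SD (line), on linear axes from 0. Aplnr and Sox18 are higher in all 4 LPS+TSLP libraries than in the 3 LPS libraries and S1pr1 is lower, and none of the 8 genes was called.

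In LPS+TSLP against Vehicle, which shares the Vehicle libraries with the comparison above, 4 members fell (Aplnr, Mmrn2, Flt4, Acvrl1) and 4 rose (Calcrl, Bmpr2, Klf2, Nostrin). Of all tested genes 5.35% were lower and 8.82% higher. At an unadjusted p under 0.05 there were 15 members, beside 33% of all genes. The members' median log2 fold change was 0.04, beside 0.03 over all tested genes. With LPS replicate 1 and LPS+TSLP replicate 1 left out there were 4 lower and 9 higher calls. No member was called without Vehicle replicate 1 or without Vehicle replicate 2, and 0 lower and 1 higher (Bmpr2) were called without LPS+TSLP replicate 2 or without LPS+TSLP replicate 3. For the 8 called members the adjusted p was 0.0709 to 0.158 without Vehicle replicate 1 and 0.0651 to 0.154 without Vehicle replicate 2, and for the 7 other than Bmpr2 it was 0.0557 to 0.0886 without LPS+TSLP replicate 2 and 0.0526 to 0.131 without LPS+TSLP replicate 3. Without LPS+TSLP replicate 4 the counts were 7 lower and 5 higher, and without LPS+TSLP replicate 1 they were 4 lower and 6 higher.

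Aplnr, at 27.4, 25.1, 29.2 and 28.4 CPM in LPS+TSLP libraries against 112, 83.6 and 43.8 CPM in Vehicle libraries, fell 2.90-fold (log2 fold change −1.53 ± 0.42, adjusted p = 0.0334). Mmrn2, at 28.0, 34.1, 39.1 and 56.1 CPM in LPS+TSLP libraries against 122, 86.6 and 71.4 CPM in Vehicle libraries, fell 2.37-fold (−1.25 ± 0.31, adjusted p = 0.025). Flt4, at 30.6, 35.8, 41.5 and 54.9 CPM in LPS+TSLP libraries against 104, 111 and 70.4 CPM in Vehicle libraries, fell 2.34-fold (−1.22 ± 0.28, adjusted p = 0.0191). For these 3 genes no LPS+TSLP library reached the lowest Vehicle library. Acvrl1, at 331, 554, 441 and 649 CPM in LPS+TSLP libraries against 1010, 1010 and 642 CPM in Vehicle libraries, fell 1.80-fold (−0.85 ± 0.26, adjusted p = 0.0491). Its groups overlapped, at LPS+TSLP replicate 4 and Vehicle replicate 3. With the GC trend removed, of these 4 only Flt4 was called (−1.05, adjusted p = 0.0452), and Aplnr (−1.34), Mmrn2 (−1.05) and Acvrl1 (−0.67) had adjusted p of 0.0599, 0.0551 and 0.105. With no filter on low counts Aplnr had an adjusted p of 0.0625 and Acvrl1 of 0.0509, and with the replicate number as a block Aplnr was at −1.46 with 0.0598. Acvrl1 was also not called by limma-voom (0.0502), with only the compared groups in the fit (0.0738) or with abundant genes removed (0.0517). Acvrl1 also lost its call without LPS replicate 2 (adjusted p = 0.0706), LPS replicate 3 (0.0523) or LPS+TSLP replicate 1 (0.0529).

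Bmpr2, at 313, 473, 447 and 803 CPM in LPS+TSLP libraries against 218, 184 and 220 CPM in Vehicle libraries, rose 2.46-fold (1.30 ± 0.31, adjusted p = 0.0215). Klf2, at 790, 581, 816 and 409 CPM in LPS+TSLP libraries against 360, 306 and 300 CPM in Vehicle libraries, rose 2.02-fold (1.01 ± 0.26, adjusted p = 0.0282). Nostrin, at 51.0, 69.2, 66.2 and 80.5 CPM in LPS+TSLP libraries against 32.7, 36.1 and 49.6 CPM in Vehicle libraries, rose 1.69-fold (0.76 ± 0.21, adjusted p = 0.0356). No LPS+TSLP library of these 3 genes fell to the Vehicle range. Calcrl, at 265, 1230, 856 and 1730 CPM in LPS+TSLP libraries against 204, 180 and 380 CPM in Vehicle libraries, rose 4.01-fold (2.0 ± 0.52, adjusted p = 0.0297). LPS+TSLP replicate 1 lay inside the Vehicle range for Calcrl. With the GC trend removed Klf2 was called (1.16, adjusted p = 0.0243), and Bmpr2 (0.54), Nostrin (0.62) and Calcrl (0.62) had adjusted p of 0.183, 0.0582 and 0.3. Calcrl was also not called with no filter on low counts (adjusted p = 0.061) or with only the compared groups in the fit (0.0534), nor Nostrin when scaled by library size alone (0.053) or with the length trend removed (0.11). Klf2 also lost its call without Vehicle replicate 3 (adjusted p = 0.0815), and Nostrin without LPS replicate 2 (adjusted p = 0.0503).

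The members that fell in LPS against Vehicle and are not in this second list were Sox7, Sox18 and Cdh5. Sox7 averaged 91.9 ± 34.6 CPM in LPS+TSLP libraries (SD, n = 4) and 132 ± 22.2 CPM in Vehicle libraries (SD, n = 3), with a log2 fold change of −0.52 (95% interval −1.15 to 0.11). Sox18 averaged 170 ± 54.3 CPM in LPS+TSLP libraries and 194 ± 33.9 CPM in Vehicle libraries, with −0.19 (−0.72 to 0.33). Cdh5 had 539, 855, 830 and 980 CPM in LPS+TSLP libraries, against 1440, 1490 and 1070 CPM in Vehicle libraries, and did not overlap, but was not called (−0.74, adjusted p = 0.0881). Their difference between LPS+TSLP and LPS was tested directly above and was not called for any of the 3.

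Near the threshold, Apln was at −1.05 (adjusted p = 0.0504), Pecam1 at −0.65 (adjusted p = 0.0671), Egfl7 at 0.71 (adjusted p = 0.0732), Klf4 at 0.83 (adjusted p = 0.0848) and Sox17 at 0.87 (adjusted p = 0.0863). Pecam1 was lower and Egfl7 higher in every LPS+TSLP library than in any Vehicle library. Without LPS replicate 1 and LPS+TSLP replicate 1, Sox17 was at 1.11 (adjusted p = 0.0162), Klf4 at 1.06 (adjusted p = 0.0146) and Lyve1 at 0.90 (adjusted p = 0.0217), against 0.59 for Lyve1 with all libraries (adjusted p = 0.394). The 8 defining endothelial markers summed to 2870 to 3890 CPM in LPS+TSLP libraries, against 3940 to 5150 CPM in Vehicle libraries. Only 1 of the 8 was called lower, beside 5.35% of all tested genes, and 3 had a log2 fold change above 0. Because 5 of the 8 are members, this sum is not a measure apart from the members. Fibroblast markers summed to 2540 to 4610 CPM in LPS+TSLP libraries, against 5460 to 6980 CPM in Vehicle libraries, and the part of cell composition was not tested.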

How the data were processed

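Total RNA of whole lung was isolated with Trizol for sequencing, as the labels' protocols say. The authors deposited 1 table of unnormalized counts of reads by gene, and the submitters' processing notes name CASAVA, HISAT2, HTSeq 0.6.0 and the build GRCm38/mm10. The annotation release and the strand setting are not given in the sources used here. No library of a group was a copy of another (chi-square per degree of freedom at least 32.3).

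Counts were filtered by filterByExpr, scaled by TMM and tested with edgeR 4.0.16 (quasi-likelihood, robust, R 4.3.3), all 10 libraries in 1 fit with 7 residual degrees of freedom, two-sided. The Benjamini-Hochberg adjustment ran over all 17139 tested genes, and the test was checked on simulated data. The simulated counts held no GC trend and no differences in cell composition, so that check does not cover either. Positions, GC content and exon lengths came from the GENCODE annotation of GRCm38, and promoter sequences from RefSeq. The members and gene lists were chosen with earlier results of these data known. Values by library are given for the 16 members with the smallest adjusted p in LPS against Vehicle, for members called in the rarer direction of any comparison, for the 3 lymphatic members and for the extremes of LPS+TSLP against LPS. In LPS+TSLP against Vehicle the directions tied, so members of both are given. Of each other list, the 4 genes with the smallest adjusted p are named. Ace, Slco2a1, Pecam1, Emcn, Tspan7, Eng and Ramp2 were added after their values were seen.

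Alternatives were other scaling, filters, tests and thresholds, the compared groups alone, the replicate number as a block, GC and length trends removed by loess (span 0.3), abundant genes removed, and each library left out.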

Additional observations from a re-analysis of the deposited data

Results flagged for a closer look

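Erg, the ETS factor of endothelial identity, had 63.3 CPM in LPS+TSLP replicate 1, against 105 CPM in the nearest of the other LPS+TSLP libraries and 108 CPM in the highest. The gap was 0.933 of the range of the group, above the 95% critical value of Dixon's test for 4 samples. Among the 41 members checked in the LPS+TSLP libraries Erg alone passed it, and chance passes about 1 in 20 such groups. The same library had 13.1% mitochondrial counts, and the part of this in the low Erg value was not tested.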

How the results depend on the processing

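In LPS against Vehicle (7 lower and 3 higher members) the higher count was 6 with the DESeq2 Wald test, 6 with only the 2 groups compared, 6 with the replicate block (9 lower) and 5 with the GC trend removed (5 lower). At an adjusted p under 0.01 it was 1 lower and 1 higher. Leaving out 1 library gave 1 to 9 lower and 1 to 5 higher, and leaving out LPS replicate 1 with LPS+TSLP replicate 1 gave 3 and 5. In LPS+TSLP against Vehicle (4 and 4) the counts were 7 and 7 with the DESeq2 Wald test, 1 and 2 with the GC trend removed, 6 and 5 with the replicate block, 0 and 0 at 0.01, 0 to 7 lower and 0 to 6 higher with 1 library left out, and 4 and 9 without both libraries. In LPS+TSLP against LPS every alternative called 0 members, the replicate block included. The labels state no pairing by replicate number. Correlations of deviations from group means between libraries of equal number ran from −0.38 to 0.46, with 4 of 9 over 0.1. Between LPS+TSLP and LPS they were 0.35, 0.46 and −0.16 for replicates 1, 2 and 3. Such mixed values cannot settle whether samples were paired.

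Directions turned for Emcn (−0.63) and Pdcd10 (−0.36) with the GC trend removed, and for Sox17 with the GC trend removed (0.12), the length trend removed (0.00, no sign), both libraries left out (0.03) and 1 library left out (−0.24 to 0.05). Removing the length trend ended the Nostrin call (0.58). Of the 16 uncalled members with no log2 fold change given in LPS against Vehicle, 9 changed sign under at least 1 alternative, as did 20 of 33 in LPS+TSLP against LPS and 10 of 24 in LPS+TSLP against Vehicle. The cause was not tested.

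Groups of 3 and 4 libraries limit precision. In LPS+TSLP against LPS the median half-width of a member's 95% interval was 0.60 on the log2 scale.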
